A study of Mus musculus with 24 samples.

Results

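The genes described here are 36 genes of the cell cycle and of DNA replication, taken from mouse liver arrays by their gene symbol out of 27248 genes with a symbol on the array. They were sorted by the step they serve: 6 genes of G1/S control, 17 of DNA replication and 13 of G2 and mitosis. Liver RNA came from male C57Bl/6J mice aged 8 weeks that had been kept on Safe 04 chow in a cycle of light and dark and were sampled at ZT16, in hours counted from lights on. There were 6 fasted LKO mice, 6 fed LKO mice, 5 fasted WT mice and 5 fed WT mice. LKO mice carry a deletion of Ppara, the nuclear receptor gene that governs fatty acid use, in the liver, and WT mice do not. Fasted mice went without food for 24 h and fed mice ate ad libitum. What drives the deletion is not given in the sources used here. The labels list 24 arrays from 22 animals, while the series' own description speaks of 24 individual mice. The animal numbers were followed, and the pair of arrays of an animal was averaged.

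Cells commit to division when D-type and E-type cyclins, with their kinases, release E2F transcription factors, which switch on the genes of DNA replication. The MCM proteins, loaded onto DNA by CDC6 and CDT1 and activated with the GINS complex, form the helicase that opens the double helix, and later mitotic cyclins, CDK1 and the polo-like and aurora kinases carry the cell through mitosis. Most hepatocytes of an adult liver rest outside the cycle, but the organ can return to division after injury. RNA of whole liver mixes all its cells, so fewer dividing cells and less RNA per cell cannot be told apart in any value below.

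Many of these genes are known to be switched on through E2F sites or through the CHR and CCAAT elements, and some of their promoters show these letters. Windows of 300 bases, from 250 before the start of transcription to 50 after it, were taken from RefSeq in the build GRCm38.p6 for 30 of the 36 genes (not Aurkb, Ccna2, Ccnd1, Ccne2, Gins1 and Mcm4). The E2F letters searched were TTTGGCGC, TTTCCCGC, TTTGCCGC and TTTCGCGC, the CHR letters TTTGAA and the CCAAT letters CCAAT, each on both strands. The promoters of 5 genes that the results below turn on, all of them with matches, are shown, with the matches in capitals. For Mcm5, Mcm6 and Uhrf1 the capitals mark E2F letters, for Top2a CHR and CCAAT letters, and for Cdk1 all 3 kinds.
Mcm5 promoter, plus strand, chr8:75109259-75109558: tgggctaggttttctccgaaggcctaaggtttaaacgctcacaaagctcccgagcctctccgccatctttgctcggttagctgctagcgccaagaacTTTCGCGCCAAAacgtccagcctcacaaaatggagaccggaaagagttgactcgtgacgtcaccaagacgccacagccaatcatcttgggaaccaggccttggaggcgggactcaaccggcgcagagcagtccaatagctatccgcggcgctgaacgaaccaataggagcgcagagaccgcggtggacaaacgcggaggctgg
Mcm6 promoter, minus strand, chr1:128359656-128359955: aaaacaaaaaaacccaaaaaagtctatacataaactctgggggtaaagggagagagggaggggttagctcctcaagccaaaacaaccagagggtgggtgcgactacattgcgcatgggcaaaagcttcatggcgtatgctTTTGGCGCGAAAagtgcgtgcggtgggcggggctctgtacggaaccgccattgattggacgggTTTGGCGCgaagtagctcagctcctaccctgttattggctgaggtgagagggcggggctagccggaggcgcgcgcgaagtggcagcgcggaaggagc
Uhrf1 promoter, plus strand, chr17:56304063-56304362, the one of its 2 windows with a match: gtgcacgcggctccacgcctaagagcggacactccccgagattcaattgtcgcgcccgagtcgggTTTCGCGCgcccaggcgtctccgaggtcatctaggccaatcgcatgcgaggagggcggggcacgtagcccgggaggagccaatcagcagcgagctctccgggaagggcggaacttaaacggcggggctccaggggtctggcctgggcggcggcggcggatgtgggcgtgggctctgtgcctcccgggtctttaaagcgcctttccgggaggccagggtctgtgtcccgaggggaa
Top2a promoter, minus strand, chr11:99024140-99024439: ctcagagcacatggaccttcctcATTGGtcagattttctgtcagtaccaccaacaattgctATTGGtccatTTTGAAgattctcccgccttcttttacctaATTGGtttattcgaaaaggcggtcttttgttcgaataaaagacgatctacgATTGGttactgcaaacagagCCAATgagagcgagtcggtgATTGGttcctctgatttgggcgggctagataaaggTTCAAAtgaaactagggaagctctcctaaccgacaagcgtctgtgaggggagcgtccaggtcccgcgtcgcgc
Cdk1 promoter, minus strand, chr10:69352863-69353162: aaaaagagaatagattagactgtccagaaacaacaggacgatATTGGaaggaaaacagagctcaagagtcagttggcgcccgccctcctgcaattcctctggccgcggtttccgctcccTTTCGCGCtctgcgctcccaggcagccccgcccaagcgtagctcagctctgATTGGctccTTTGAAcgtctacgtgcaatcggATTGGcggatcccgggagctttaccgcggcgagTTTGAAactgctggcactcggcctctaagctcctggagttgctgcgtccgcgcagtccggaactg
In Mcm5 the letters TTTCGCGC, starting 153 bases before the start, overlap GCGCCAAA of the other strand. In Mcm6 an overlapping pair starts at 110 bases and a separate TTTGGCGC at 47 bases before the start. In Top2a a CHR match lies 23 bases before the start with 6 CCAAT matches upstream of it, and in Cdk1 the nearest CHR match lies 15 bases before the start.

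E2F letters stood in the promoter windows of 8 of 15 replication genes (Cdc6, Cdt1, Lig1, Mcm3, Mcm5, Mcm6, Mcm7 and Uhrf1), of 1 of 11 genes of G2 and mitosis (Cdk1) and of 0 of 4 genes of G1/S control, against 2.6% of all 27025 genes with a window. CHR letters stood in 8 of 11 genes of G2 and mitosis and in 1 of 15 replication genes, against 20.2% of all genes. CCAAT letters stood in 10 of 11 genes of G2 and mitosis and in 10 of 15 replication genes, against 41.1% of all genes. Over windows in place of genes, the shares were 2.26%, 17.9% and 37.4% of 32851. The windows of Birc5, Ccne1, Cdkn1a, E2f1, Tk1 and Tyms held none of the 3 kinds of letters. These are matches of letters and not measured binding.

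**Figure D1:**
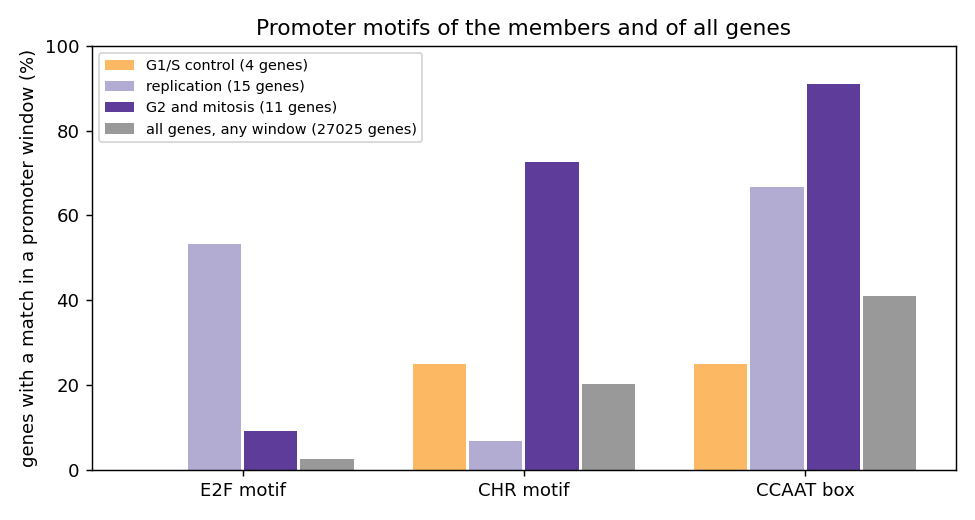
Bars give the percentage of genes with at least 1 match of the E2F, CHR or CCAAT letters in a promoter window, for the members of each step and for all 27025 genes. E2F letters reach 53.3% of the 15 replication genes, and CHR letters 72.7% of the 11 genes of G2 and mitosis.

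All levels below are log2 signals relative to the 75th percentile of their array, so that 0 is the signal of that percentile, and they are compared only within a gene. That percentile lay between 451 and 621.2 intensity units over the 24 arrays, and 50.03% to 58.8% of probes were well above background. Genes whose probe was well above background in 5 or more of the 22 animals entered the fits, 17331 in all. Of the 36 members 32 passed (not Ccne2, Bub1, Bub1b and Aurkb), 28 of them in all 22 animals. Ppara, read by a probe on chromosome 15 (mm9, 85632110 to 85632169), was at 5.04 ± 0.12 (SD, n = 6) in fasted LKO and 5.90 ± 0.13 (n = 5) in fasted WT, and at 4.61 ± 0.37 (n = 6) in fed LKO and 5.27 ± 0.20 (n = 5) in fed WT. It was thus 1.82-fold lower in fasted LKO (adjusted p = 5.36e-05) and 1.58-fold lower in fed LKO (adjusted p = 0.00672). Which exons the deletion removes is not given in the labels, and a probe that lies outside them checks nothing. Fed LKO replicate 3 stood apart from its group. On the third principal component it scored 57.7, while the rest of the group scored -17.2 to -4.60. Its summed signal of neutrophil markers, 6.78 times the percentile, compares with 2.91 to 3.43 in the others. Calls that this mouse decides are given with and without it.

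With a 24 h fast most of these genes fell in the liver of both genotypes. In fasted against fed LKO mice 27 of the 32 tested members fell, where 26.8% of all genes tested did, and 2 rose, where 22.7% of all genes did (49.5% in either direction). In fasted against fed WT mice 24 fell and 1 rose, where 21.7% and 22.5% of all genes did (44.1% in either direction). The median change of the members was -0.96 in LKO and -0.88 in WT on the log2 scale, beside medians of -0.04 and 0.00 over all genes. Calls are at an adjusted p under 0.05 from limma, fitted over all genes tested. The filter keeps genes that are high in at least some animals, so the count was also made for all 36 members with no filter: 28 fell and 2 rose in LKO (16.1% and 13.5% of 27248 genes), and 22 fell and 1 rose in WT (12.5% and 13%). Members of each step fell. Replication genes fell in 15 of 17 cases in LKO and 14 of 17 in WT, genes of G2 and mitosis in 9 of 10 and 7 of 10, and genes of G1/S control in 3 of 5 in each genotype. All 29 called changes in LKO and all 25 in WT had the same sign within each of the 3 slides. The slides hold the arrays that gave the calls, 2 per group on each, and the paired arrays of a WT animal lie on different slides. This agreement is therefore no separate test of the calls. Without fed LKO replicate 3, 26 members fell and 2 rose in LKO.

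**Figure D2:**
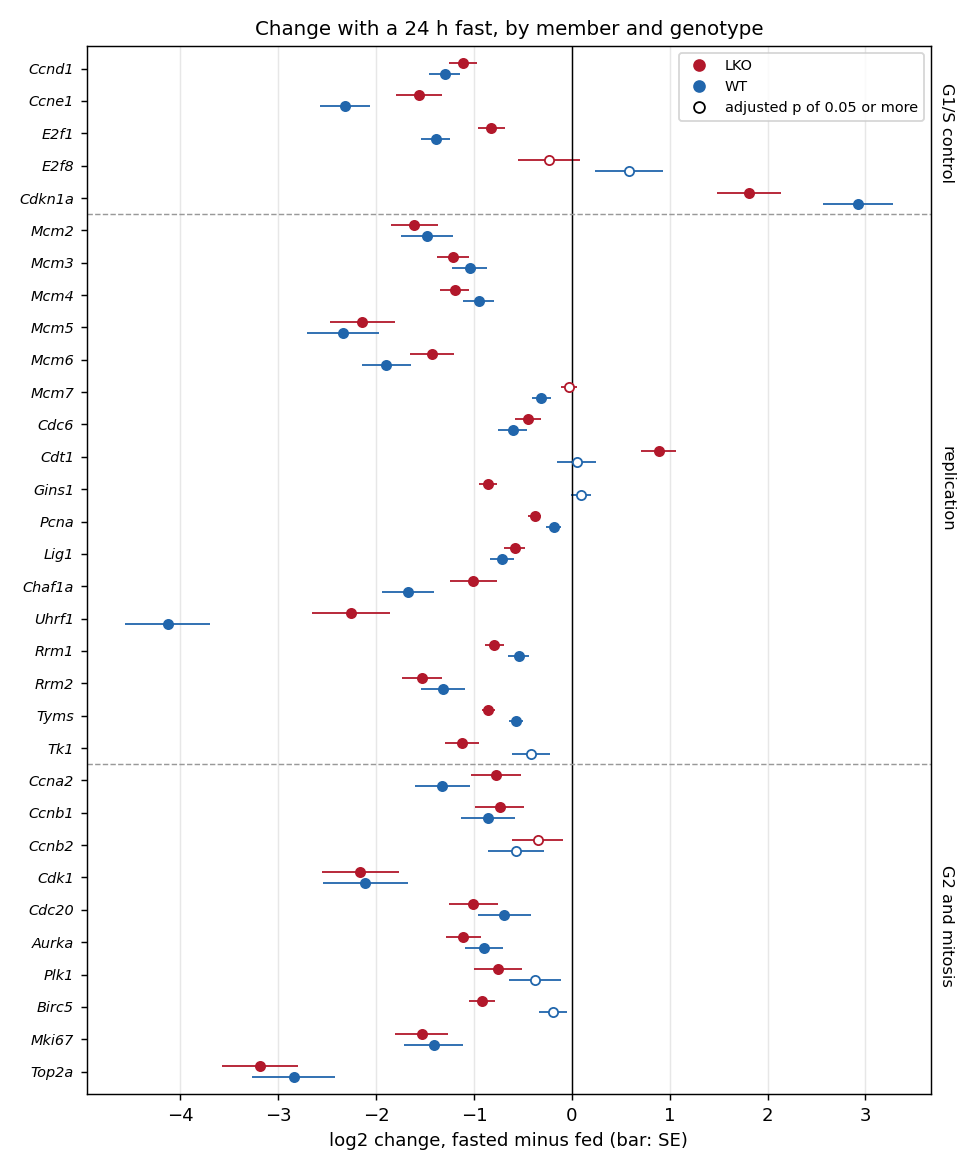
Points give the log2 change of each of the 32 tested members, fasted minus fed, with its SE as a bar, in LKO (red, upper of each pair) and WT (blue, lower). Filled points passed an adjusted p of 0.05; nearly all filled points lie left of 0, with Cdkn1a in both genotypes and Cdt1 in LKO to its right.

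Among the genes of G1/S control, the cyclins fell and the inhibitor rose. Ccnd1, the D-type cyclin that couples growth signals to the cycle, had a lowest, median and highest level of -0.52, -0.02 and 0.39 in the 6 fasted LKO mice, against 0.76, 1.15 and 1.28 in the 6 fed ones. In fasted WT mice its levels were -0.54, -0.35, 0.09, -0.21 and 0.06, and in fed WT mice 1.20, 1.29, 1.11, 0.70 and 1.25. Fasted mice were low and fed mice high in each genotype, with no overlap. Ccnd1 fell 2.16-fold in LKO (log2 -1.11, SE 0.14, adjusted p = 1.7e-06) and 2.46-fold in WT (log2 -1.30, SE 0.15, adjusted p = 1.09e-06). Ccne1, the E-type cyclin that drives entry into S phase, fell 2.96-fold in LKO and 4.97-fold in WT (log2 -1.56, SE 0.23, and -2.31, SE 0.25). Ccne2, its paralog, was not well above background in any of the 22 mice.

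Cdkn1a encodes p21, an inhibitor of cyclin-dependent kinases and a target of p53. It had a lowest, median and highest level of 1.47, 2.79 and 3.73 in fasted LKO mice, against 0.24, 0.70 and 2.01 in fed LKO mice. Fasted WT mice stood at 2.26, 2.74, 2.62, 2.88 and 2.04, and fed WT mice at -0.25, -0.68, 0.22, -0.56 and -0.80. The WT groups were far apart, while the ranges of fasted and fed LKO mice overlapped. Cdkn1a rose 3.52-fold in LKO (log2 1.81, SE 0.33, adjusted p = 0.000105) and 7.57-fold in WT (log2 2.92, SE 0.36, adjusted p = 1.58e-06). The difference between these responses did not pass its test (log2 -1.11, SE 0.49, adjusted p = 0.122). A further probe of Cdkn1a, well above background in 16 of 22 mice, gave 1.60 in LKO and 1.97 in WT.

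E2f1, an activating E2F factor, had a lowest, median and highest level of -2.13, -1.60 and -1.32 in fasted LKO mice, against -0.99, -0.82 and -0.61 in fed LKO mice. It was at -2.76, -2.96, -2.14, -2.79 and -2.39 in fasted WT mice and at -1.28, -0.94, -1.30, -1.38 and -1.20 in fed WT mice. Fasted mice lay below fed mice in both genotypes, and every fasted LKO mouse lay above every fasted WT mouse, by a narrow gap. E2f1 fell in both genotypes, with log2 changes of -0.82 in LKO (SE 0.14, adjusted p = 4.98e-05) and -1.39 in WT (SE 0.15, adjusted p = 3.84e-07). E2f8, a repressing E2F factor, passed in neither genotype, with changes of -0.23 (SE 0.32) in LKO and 0.59 (SE 0.35) in WT.

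Of the replication genes, the MCM helicase subunits lay among those with large changes, with an exception. Mcm5 had a lowest, median and highest level of -4.19, -4.03 and -3.82 in fasted LKO mice, against -3.01, -1.95 and -0.14 in fed LKO mice. It was at -3.90, -2.85, -3.48, -3.73 and -3.14 in fasted WT mice and at -1.04, -0.37, -1.04, -1.78 and -1.17 in fed WT mice. Fasted and fed mice did not overlap in either genotype, and fed LKO mice were widely spread. The fall was 4.41-fold in LKO (log2 -2.14, SE 0.33, adjusted p = 2.16e-05) and 5.05-fold in WT (log2 -2.34, SE 0.37, adjusted p = 3.02e-05). Its size depends on the background correction: with normexp, a model that subtracts background and keeps dim signals positive, it was -1.18 in LKO and -1.45 in WT. Mcm2, Mcm3, Mcm4 and Mcm6 fell too, with log2 changes of -1.61, -1.22, -1.20 and -1.43 in LKO and -1.48, -1.04, -0.95 and -1.90 in WT. With normexp the Mcm2 changes were -0.76 and -0.83. Mcm7 fell by 0.31 in WT (SE 0.09, adjusted p = 0.0102), while its value of -0.03 in LKO (SE 0.08, adjusted p = 0.808) did not pass. The probe of Mcm5 lies on chromosome 8 (mm9, 77651350 to 77651410) and that of Mcm6 on chromosome 1 (mm9, 130228178 to 130228237).

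Uhrf1, which brings the maintenance DNA methyltransferase to newly copied DNA, fell in both genotypes. In fasted LKO mice its lowest, median and highest levels were -6.37, -4.84 and -4.23, and in fed LKO mice -3.76, -2.76 and -1.37. In fasted WT mice it was at -6.51, -6.36, -5.64, -6.83 and -7.17, and in fed WT mice at -2.36, -1.49, -2.32, -3.51 and -2.20. Its probe was well above background in every fed mouse, in 3 of 6 fasted LKO mice and in 0 of 5 fasted WT mice. For WT the fall in these signals was therefore at least 6.23-fold. Here the fed mean was set against, per array, the lowest signal of any probe well above background or the probe's own signal if higher. Limma's adjusted p of 2.65e-07 is for the measured means (log2 -4.13) and does not test that bound. In LKO the log2 change was -2.26 (SE 0.40, adjusted p = 8.34e-05). With normexp the changes were -0.90 in LKO and -1.33 in WT. The WT fall was 2.52-fold with normexp and 3.66-fold in the authors' deposited table, both below the bound, which thus holds only for the main background treatment.

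The enzymes that make DNA precursors fell in LKO, and all but Tk1 did in WT. Rrm2, the regulated subunit of ribonucleotide reductase, fell 2.88-fold in LKO (log2 -1.53, SE 0.20) and 2.49-fold in WT (log2 -1.32, SE 0.22). Rrm1, its partner, changed by -0.79 in LKO and -0.54 in WT, and Tyms, thymidylate synthase, by -0.85 and -0.57, all of them called. Tk1, thymidine kinase, fell by 1.13 in LKO (SE 0.17, adjusted p = 1.89e-05). In WT the change of Tk1 was -0.42 (SE 0.19, adjusted p = 0.0834), which did not pass. Without fasted WT replicate 4 it was -0.53 (adjusted p = 0.0319), within a range of 0.0319 to 0.214 over 31 alternatives.

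Among the genes that copy DNA and pack it, Pcna, the sliding clamp of the polymerases, fell, with log2 changes of -0.38 in LKO (SE 0.07, adjusted p = 8.86e-05) and -0.19 in WT (SE 0.07, adjusted p = 0.0459). The WT call of Pcna was lost in 23 of 31 alternatives, in 18 of which 1 animal was left out, with changes of -0.19 to -0.16 and adjusted p of 0.0504 to 0.111. Some of these 18 leave out an LKO mouse. That does not alter the WT change and moves only the spread shared by the groups in the fit and the adjustment over genes. Lig1, the ligase that joins Okazaki fragments, fell too, with -0.58 in LKO and -0.71 in WT, as did Chaf1a, a chaperone that loads histones behind the fork, with -1.01 and -1.68 (with normexp -0.46 and -0.90). Cdc6 fell, with -0.45 in LKO and -0.60 in WT, and with normexp the changes were -0.28 and -0.34. Cdt1 and Gins1, whose responses differed between genotypes, are described with the test of that difference.

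Among the genes of G2 and mitosis, Top2a fell in both genotypes. It encodes the topoisomerase that untangles chromosomes before they part. Its lowest, median and highest levels were -7.45, -6.49 and -5.13 in fasted LKO mice, against -3.86, -3.70 and -1.62 in fed LKO mice. In fasted WT mice it was at -6.30, -6.27, -5.47, -6.97 and -6.51, and in fed WT mice at -3.40, -3.02, -3.20, -4.07 and -3.61. It was well above background in all 11 fed mice and in no fasted mouse, so fed mice alone brought it past the filter. In these signals the fall was at least 3.40-fold in LKO and at least 2.93-fold in WT. The measured means differed by -3.19 (limma's adjusted p = 9.72e-07) and -2.84 (adjusted p = 1.71e-05), which does not test the bounds. With normexp the changes were -0.88 and -0.80, or 1.84-fold and 1.74-fold. In the authors' deposited table the falls were 2.33-fold and 2.22-fold, so all of these lay below the bounds.

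Mki67, the gene of the proliferation marker Ki-67, had a lowest, median and highest level of -3.85, -3.52 and -2.51 in fasted LKO mice, against -2.66, -2.07 and -0.67 in fed LKO mice. Fasted WT mice stood at -3.82, -3.79, -3.39, -3.00 and -3.41, and fed WT mice at -1.87, -2.01, -1.80, -2.44 and -2.23. The WT groups did not overlap, and the ranges of the LKO groups did. Mki67 fell 2.89-fold in LKO (log2 -1.53, SE 0.27, adjusted p = 8.99e-05) and 2.66-fold in WT (log2 -1.41, SE 0.30, adjusted p = 0.00064). With normexp the changes were -0.90 and -0.80. Cdk1, the kinase that drives mitosis, was well above background in 3 of 6 fed LKO and 4 of 5 fed WT mice and in no fasted mouse. Fed mice alone thus brought Cdk1 past the filter. In these signals its fall was at least 1.62-fold in LKO and at least 1.94-fold in WT. Limma's adjusted p of 0.000122 and 0.000481 are for the measured means (log2 -2.16 and -2.11) and do not test the bounds. The falls were 1.39-fold in LKO and 1.46-fold in WT with normexp. In the authors' deposited table they were 1.59-fold and 1.70-fold, so all 4 lay below the bounds.

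Aurka and Cdc20 fell in both genotypes. Aurka, a spindle pole kinase, changed by -1.11 in LKO and -0.90 in WT, and Cdc20, an activator of the anaphase-promoting complex, by -1.01 and -0.69. The WT call of Cdc20 (adjusted p = 0.0457) was lost in 12 of 31 alternatives, 11 of which left out 1 animal, with changes of -0.73 to -0.52 and adjusted p of 0.051 to 0.135. Some of these 11 leave out a fasted LKO mouse, which does not alter the WT change itself. With the mean of its probes the WT change of Cdc20 was -1.17. The mitotic cyclins Ccna2 and Ccnb1 fell, with changes of -0.78 and -0.74 in LKO and -1.32 and -0.86 in WT. With only the fasted and fed LKO groups in the fit, the adjusted p of Ccna2 in LKO was 0.0602 (0.00381 to 0.0602 over 31 alternatives). With normexp the Ccna2 changes were -0.44 and -0.64 and the Ccnb1 changes -0.33 and -0.38. The Ccnb1 call in LKO was lost without fasted LKO replicate 2 (-0.63, adjusted p = 0.0517) or fed LKO replicate 3 (-0.61, adjusted p = 0.0523), and in WT without fasted WT replicate 4 (-0.69, adjusted p = 0.054). Over the alternatives its adjusted p ran from 0.00216 to 0.0523 in LKO and from 0.00191 to 0.054 in WT.

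Ccnb2, another mitotic cyclin, passed in neither genotype, with -0.35 in LKO (SE 0.26, adjusted p = 0.283) and -0.57 in WT (SE 0.28, adjusted p = 0.112). Without fasted WT replicate 3, whose level of -1.14 lay above the -3.01 to -2.50 of the other fasted WT mice, the WT change was -0.88 (adjusted p = 0.0031, range over 31 alternatives 0.0031 to 0.272). Plk1, the polo-like kinase of mitosis, fell by 0.75 in LKO (SE 0.24, adjusted p = 0.0142) and changed by -0.38 in WT (SE 0.27, adjusted p = 0.266), which did not pass. Without fed LKO replicate 3 the Plk1 change in LKO was -0.48 (adjusted p = 0.0194), with normexp it was -0.40, and with only the fasted and fed LKO groups in the fit its adjusted p was 0.0565 (0.00211 to 0.0565 over 31 alternatives). Bub1 and Aurkb were well above background in 2 and 4 of the 22 mice and Bub1b in none, so their levels were not followed.

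**Figure D3:**
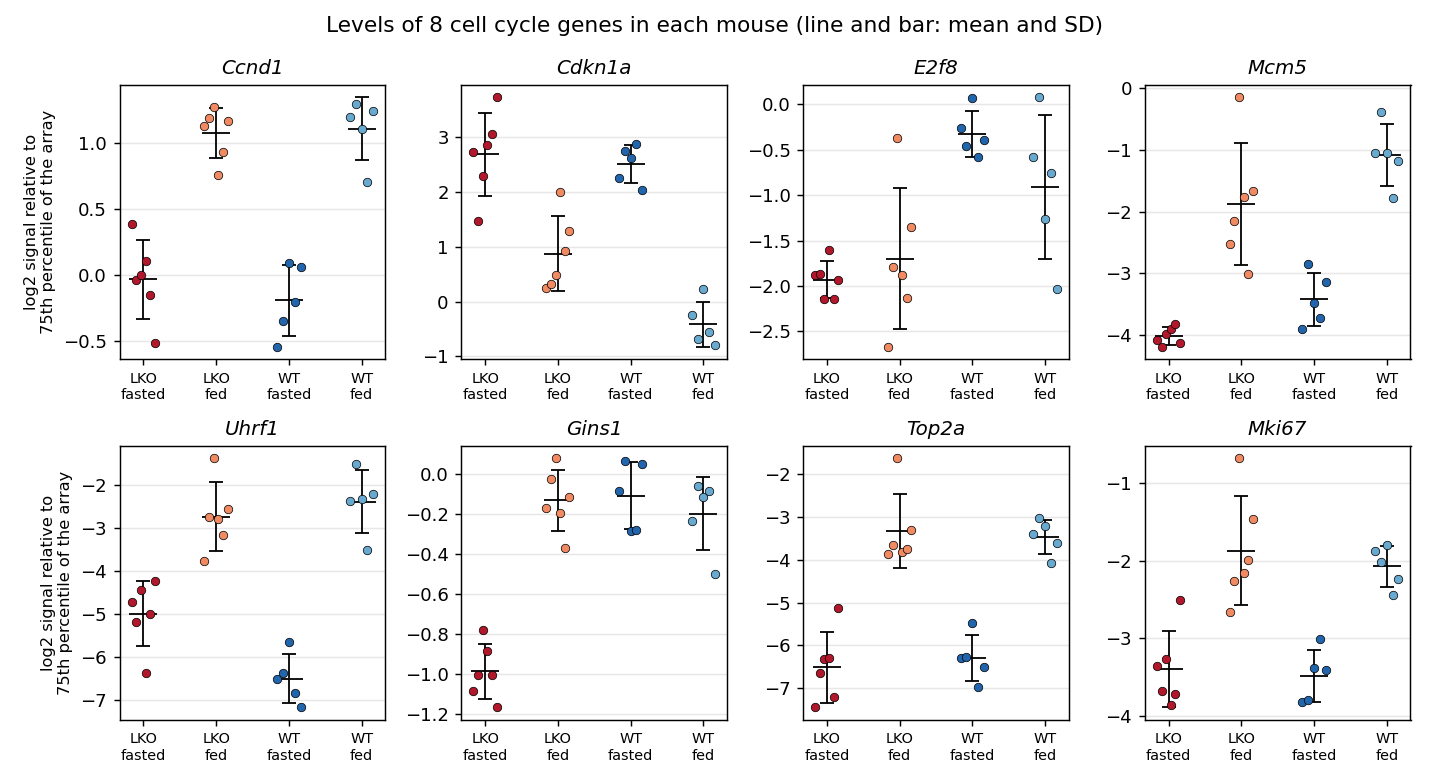
Each point is 1 mouse and its height the log2 signal of the gene relative to the 75th percentile of the array, for 8 members in fasted LKO, fed LKO, fasted WT and fed WT mice, with the mean and SD of each group. Ccnd1, Mcm5, Uhrf1, Top2a and Mki67 are low in fasted mice of both genotypes, Cdkn1a is high in them, Gins1 is low in fasted LKO mice alone, and E2f8 is higher in fasted WT mice than in fasted LKO mice.

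The median over the members of a step, each taken as its deviation from the mean of all 22 mice, gives a level for each animal. For replication genes it lay between -0.71 and -0.43 in fasted LKO mice, against -0.04 to 0.79 in fed LKO mice, and between -0.35 and -0.13 in fasted WT mice, against 0.28 to 0.72 in fed WT mice. For genes of G2 and mitosis it lay between -0.65 and -0.06 in fasted LKO mice, against 0.03 to 1.68 in fed LKO mice, and between -0.76 and -0.14 in fasted WT mice, against 0.10 to 0.69 in fed WT mice. Fasted and fed mice did not overlap in either step and genotype. Fed LKO replicate 3 had the value of 1.68, and the other fed LKO mice reached 0.82. Within the slides, the median change of all tested members was -1.04, -0.88 and -0.99 in LKO and -0.84, -1.19 and -0.87 in WT.

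**Figure D4:**
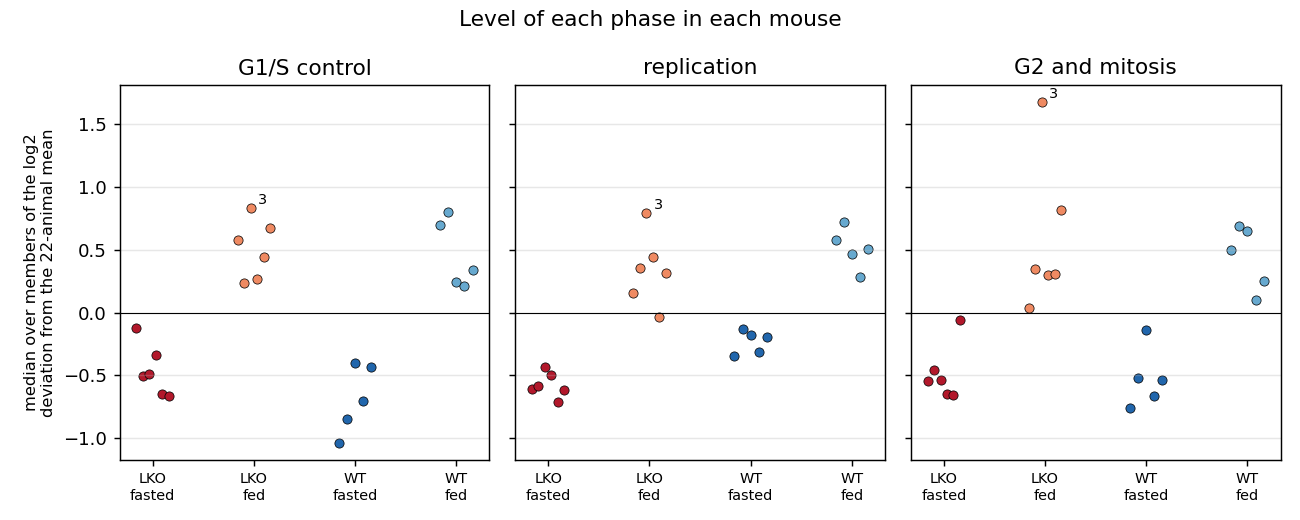
Each point is 1 mouse, and its height is the median over the tested members of a step of the log2 deviation from the mean of the 22 mice, in fasted LKO, fed LKO, fasted WT and fed WT mice. Fasted mice lie below 0 in all 3 panels, and fed LKO replicate 3, marked 3, lies at 1.68 for G2 and mitosis.

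Further genes of the same steps, listed by function, fell in larger number than they rose for replication and for G2 and mitosis. Over all genes tested 26.8% fell and 22.7% rose in LKO, and 21.7% and 22.5% did in WT, as given above. Of 35 tested other replication genes, 26 fell and 0 rose in LKO and 24 fell and 2 rose in WT, with medians of -0.60 and -0.58. They include Chek1, the S-phase checkpoint kinase (-1.77, SE 0.39, in LKO and -2.07, SE 0.43, in WT), and Pole2, a subunit of polymerase epsilon (-1.48, SE 0.29, and -1.99, SE 0.32). Of 40 other genes of G2 and mitosis only 25 passed the filter, which a gene can pass through fed mice alone. Of these 25, 18 fell and 1 rose in LKO and 15 fell and 3 rose in WT, with medians of -0.67 and -0.50. Counts with no filter were made for the members and not for these further lists. Prc1, a protein of the spindle midzone, fell, with -1.68 in LKO (SE 0.49) and -2.45 in WT (SE 0.53). Other genes of G1/S control were divided, with 9 of 23 lower and 5 higher in each genotype. E2f2, an activating E2F factor, fell, with -1.56 in LKO (SE 0.16) and -2.45 in WT (SE 0.18), while Myc rose in LKO, with 1.41 (SE 0.39). The share of these 23 genes that rose, 21.7% in each genotype, is near that of all genes. Of 17 p53 response genes, 5 fell and 7 rose in LKO and 7 fell and 6 rose in WT, and the share that fell in LKO, 29.4%, is near that of all genes. Gadd45b, a stress-induced gene, rose by 2.93 in LKO (SE 0.26) and 3.43 in WT (SE 0.29). Gadd45a fell in WT, with a change of -1.44 (SE 0.37).

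Markers of other cells of the liver were read beside these falls. Over all genes 26.8% fell and 22.7% rose in LKO, and 21.7% fell and 22.5% rose in WT. A count of 1 of 5 markers (20%) is near these shares and says little about a cell type. Of 5 hepatocyte markers 1 fell and 1 rose in each genotype, and their summed signal lay between 3417 and 3585 times the percentile in fasted LKO, against 3551 to 3850 in fed LKO, and between 3192 and 3567 in fasted WT, against 3444 to 3854 in fed WT. Of 5 tested red cell precursor markers 1 fell in LKO and 2 fell in WT, and their sum lay between 235.7 and 410.6 in fasted LKO, against 266.7 to 605.7 in fed LKO, and between 208 and 290 in fasted WT, against 267.1 to 358.7 in fed WT. Of 5 tested neutrophil markers 1 fell in each genotype, and of 5 tested lymphocyte markers 1 fell in LKO and 2 in WT. Of 6 macrophage markers 1 fell in each genotype and 1 rose in WT, and of 5 stellate cell markers 2 fell and 1 rose in LKO and 1 fell and 1 rose in WT. Of 4 cholangiocyte markers 0 changed. Of 6 endothelial markers 2 fell and 1 rose in LKO and 4 rose in WT. Epb4.2 of the red cell list was well above background in no mouse. The part of these cells in the falls was not tested.

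Fewer members passed between LKO and WT mice than between fasted and fed mice, as did fewer of all genes tested. In fasted mice 8 of the 32 tested members were lower in LKO, where 19.8% of all genes were, and 3 were higher, where 17.8% of all genes were (37.6% in either direction). With no filter 6 of all 36 members were lower and 2 higher (11.2% and 9.78% of 27248 genes). The share of members that were lower, 25%, was near that of all genes, and the share that were higher, 9.4%, was below it. The median difference was 0.00, beside -0.01 over all genes. All 11 differences had the same sign within each of the 3 slides, whose arrays also gave the calls. Without fed LKO replicate 3, Aurka passed as well (-0.40, adjusted p = 0.0103, against 0.103 with all mice, and 0.00574 to 0.199 over 31 alternatives). Of the 17 replication genes 7 were lower and 1 was higher in LKO, and of 10 genes of G2 and mitosis 0 were lower and 1 was higher.

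Gins1 had the smallest adjusted p of the members in this comparison. It encodes a subunit of the GINS complex, which joins the MCM proteins in the working helicase. Its lowest, median and highest levels were -1.17, -1.003 and -0.78 in fasted LKO mice, against -0.37, -0.14 and 0.08 in fed LKO mice. In fasted WT mice it was at -0.08, 0.06, -0.28, -0.28 and 0.05, and in fed WT mice at -0.23, -0.06, -0.11, -0.09 and -0.50. The fasted LKO mice lay below all other mice, and the other 3 groups overlapped. Gins1 was 1.84-fold lower in fasted LKO than in fasted WT (log2 -0.88, SE 0.10, adjusted p = 5.49e-07). It fell by 0.85 with fasting in LKO (SE 0.09, adjusted p = 2.03e-07) and changed by 0.09 in WT (SE 0.10, adjusted p = 0.495). The difference of these responses was -0.95 (SE 0.14, adjusted p = 8.92e-05), it passed in all 30 alternatives (-0.99 to -0.79), and it lay between -1.07 and -0.69 within the slides. A further probe of Gins1 gave fasting changes of -0.73 in LKO and 0.04 in WT. The main probe lies on chromosome 2 (mm9, 150756868 to 150756927).

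Other replication genes were lower in fasted LKO than in fasted WT without a called difference in response, though the interactions of Tyms (-0.28, adjusted p = 0.0558) and Tk1 (-0.71, adjusted p = 0.0615) passed in 9 and 5 of 30 alternatives (adjusted p of 0.0355 to 0.11 and 0.0223 to 0.114). Mcm4 had a lowest, median and highest level of -1.44, -1.30 and -1.18 in fasted LKO mice, and stood at -0.66, -0.36, -0.29, -0.56 and -0.56 in fasted WT mice. Those groups did not overlap, and the Mcm4 signal of fasted LKO mice was lower by 1.77-fold (log2 -0.82, SE 0.15, adjusted p = 0.00027). Mcm3, Rrm1 and Tyms were lower as well, with differences of -0.69, -0.59 and -0.33. Tk1 (-0.50, adjusted p = 0.0351) and Pcna (-0.21, adjusted p = 0.0262) were lower too, but their calls were lost in 8 and 5 of 31 alternatives. Leaving out fasted WT replicate 4 gave -0.39 (adjusted p = 0.112) for Tk1 and -0.18 (adjusted p = 0.0743) for Pcna, and the Tk1 call was also lost without fasted LKO replicate 3 or 5 or fasted WT replicate 1 or 3 (-0.48 to -0.39, adjusted p of 0.0722 to 0.112).

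E2f8 was the member with the largest difference downward in fasted LKO mice. Its lowest, median and highest levels were -2.15, -1.91 and -1.61 in fasted LKO mice, while fasted WT mice stood at -0.26, -0.46, 0.07, -0.59 and -0.40. Those groups were far apart. In fed LKO mice the lowest, median and highest were -2.67, -1.83 and -0.38, and fed WT mice stood at -0.58, 0.08, -1.26, -0.75 and -2.04, so the fed groups overlapped. E2f8 was 3.04-fold lower in fasted LKO than in fasted WT (log2 -1.61, SE 0.33, adjusted p = 0.000711). Its 3 probes did not move alike: at the further probes the mean was -5.41 in fasted LKO and -3.72 in fasted WT (2 of 6 and 5 of 5 mice well above background), and -4.26 in fasted LKO and -4.57 in fasted WT (5 of 6 and 4 of 5). With the mean of the probes the difference was -0.997 (adjusted p = 0.00346, the highest over 31 alternatives). The main probe lies on chromosome 7 (mm9, 56121860 to 56121919).

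The members higher in fasted LKO were E2f1, Uhrf1 and Ccna2. E2f1 was 1.96-fold higher in fasted LKO than in fasted WT (log2 0.97, SE 0.14, adjusted p = 2.54e-05), and with normexp the difference was 0.63. Uhrf1 was higher by 1.52 (SE 0.42, adjusted p = 0.00675), but not well above background in any fasted WT mouse, so the bound was only at least 1.02-fold. The Uhrf1 call was lost with normexp (0.26, adjusted p = 0.256) and in the authors' deposited table (0.42, adjusted p = 0.155). Ccna2 was higher by 0.74 (SE 0.27, adjusted p = 0.0363), a call lost in 11 of 31 alternatives. Of these, 7 leave out a mouse (fasted LKO replicate 1, 2 or 6, or fasted WT replicate 1, 2, 3 or 5), with differences of 0.57 to 0.76 and adjusted p of 0.0508 to 0.0924, and with normexp the difference was 0.32 (adjusted p = 0.075).

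Endothelial markers moved with this comparison, in which 19.8% of all genes were lower and 17.8% higher in fasted LKO. All 6 of them were lower in fasted LKO than in fasted WT, and their summed signal lay between 23.7 and 29.3 times the percentile in fasted LKO and between 33.2 and 51.2 in fasted WT. Of the other markers, 1 of 6 of macrophages was lower, and 1 of 5 of lymphocytes, 2 of 5 of red cell precursors and 1 of 4 of cholangiocytes were higher. The shares of macrophages (16.7%) and lymphocytes (20%) are near those of all genes. Their part in the differences was not tested.

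In fed mice the shares of members that differed, 3.1% lower and 3.1% higher, were near those of all genes. Of 32 tested, 1 was lower in LKO, where 1.96% of all genes were, and 1 was higher, where 1.95% of all genes were (3.91% in either direction), and with no filter 0 of all 36 passed (0.932% of all genes were lower and 0.818% higher). The lower one was Mcm4, whose lowest, median and highest levels were -0.56, -0.13 and 0.58 in fed LKO mice, with fed WT mice at 0.55, 0.67, 0.36, 0.05 and 0.70. The ranges overlapped, and the difference was -0.58 (SE 0.15, adjusted p = 0.0367). The higher one was Cdkn1a, at 2.44-fold (log2 1.29, SE 0.34, adjusted p = 0.037), with every fed LKO mouse above every fed WT mouse by a narrow gap. Each of these calls was lost in 11 of 31 alternatives. For Mcm4 8 of these leave out a mouse (fed LKO replicate 1, 2, 5 or 6, or fed WT replicate 1, 2, 3 or 5, adjusted p of 0.0595 to 0.104), and for Cdkn1a 7 do (fed LKO replicate 4, 5 or 6, or fed WT replicate 1, 2, 4 or 5, adjusted p of 0.0651 to 0.0971). With the mean of its probes the Cdkn1a difference was 0.89 (adjusted p = 0.207).

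The fed comparison depends on which mice are in it. With 1 animal left out the count of lower members ran from 0 to 8, and it moved most without fed LKO replicate 3. Without fed LKO replicate 3, 8 members were lower in fed LKO and 1 was higher, where 2.37% and 2.71% of all genes were, and the median difference was -0.18 in place of -0.06. Mcm5 then differed by -1.14 (SE 0.26, adjusted p = 0.0113), against -0.79 (SE 0.35, adjusted p = 0.269) with all mice. E2f8, Ccne1, Cdt1, Mcm3, Rrm1 and Mcm7 were the others that came to pass, at -1.05, -0.78, -0.79, -0.61, -0.43 and -0.27. In this mouse Top2a stood at -1.62, while the rest of the group lay between -3.86 and -3.29, and endothelial and red cell markers summed to 27.8 and 266.7, against 32.5 to 40.2 and 323.9 to 605.7 in the others. Stellate cell and macrophage markers summed to 40.1 and 38.8, also below the 45.1 to 54.1 and 39.4 to 54.6 of the others. The sums of hepatocyte, lymphocyte and cholangiocyte markers lay within the range of the others. Without fed WT replicate 4, the lowest of its group for Mcm5 and Uhrf1, 4 members were lower in fed LKO, where 1.71% of all genes were.

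**Figure D5:**
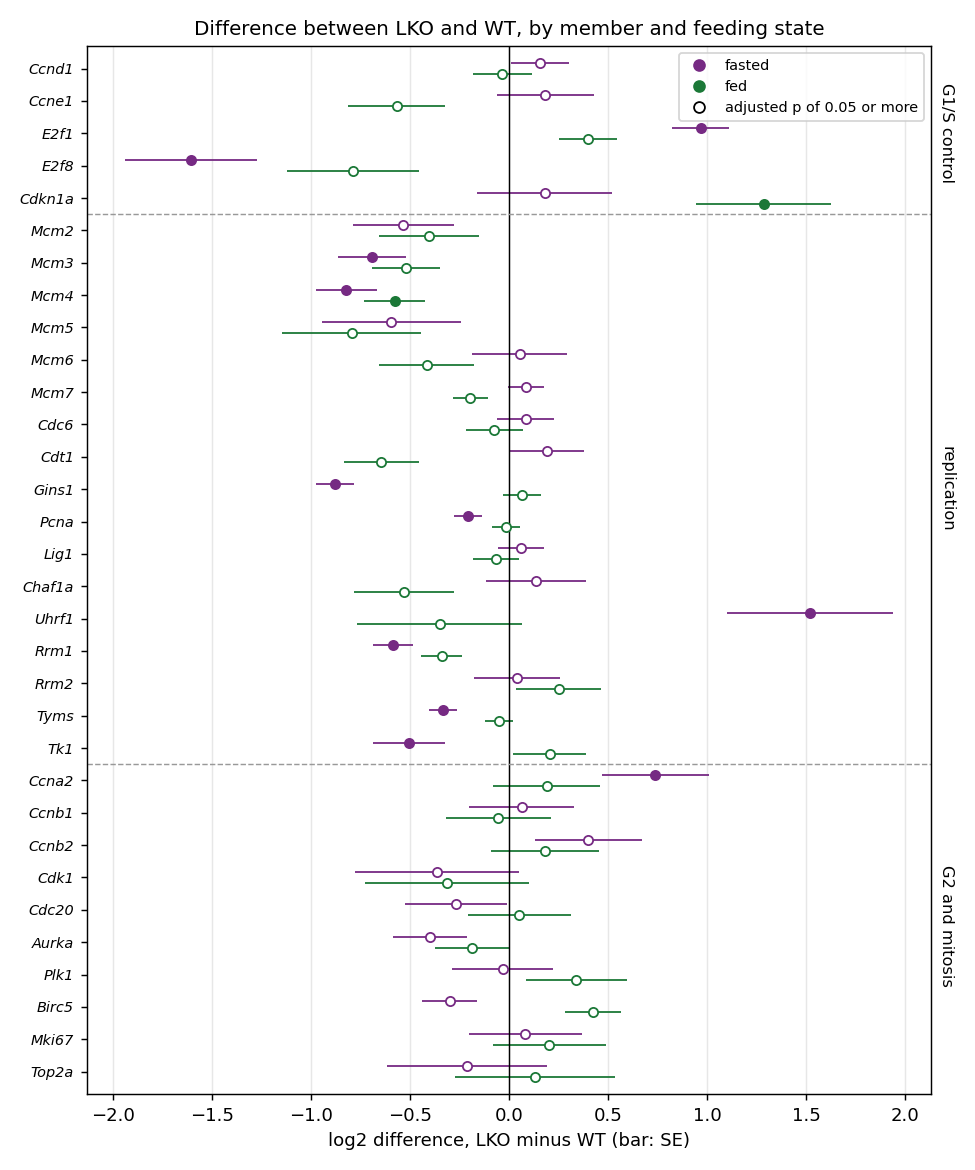
Points give the log2 difference of each of the 32 tested members, LKO minus WT, with its SE as a bar, in fasted mice (purple, upper of each pair) and fed mice (green, lower). Filled points passed an adjusted p of 0.05: 11 in fasted mice, with E2f8 at -1.61 and Uhrf1 at 1.52 at the ends, and Mcm4 and Cdkn1a in fed mice.

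Whether the response to fasting differed between the genotypes was tested by the interaction, which subtracts the WT change from the LKO change. Of 32 members 2 had a lower value, where 10.7% of all genes did, and 2 a higher one, where 7.66% of all genes did (18.4% in either direction). The shares of the members, 6.25% in each direction, were not above those of all genes. With no filter 2 of all 36 members were lower and 0 higher (4.95% and 3.59% of 27248 genes). Without fed LKO replicate 3, 4 were lower and 4 higher, where 13.8% and 9.39% of all genes were. The members added were Tk1 (-0.81, adjusted p = 0.0223) and Tyms (-0.30, adjusted p = 0.0411) as lower and Ccne1 (0.97, adjusted p = 0.0151) and Mcm7 (0.36, adjusted p = 0.0141) as higher, and over 30 alternatives their adjusted p reached 0.114, 0.11, 0.258 and 0.229. Gins1, described above, was 1 of the lower ones and Birc5 the other.

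Birc5 encodes survivin, a subunit of the chromosomal passenger complex of mitosis. Its lowest, median and highest levels were -1.23, -0.96 and -0.53 in fasted LKO mice, against -0.25, -0.13 and 0.34 in fed LKO mice. Fasted WT mice stood at -0.67, -0.37, -0.78, -0.51 and -0.93, and fed WT mice at -0.34, -0.28, -0.36, -0.49 and -0.84. The LKO groups did not overlap and the WT groups did. Birc5 fell by 0.92 in LKO (SE 0.13, adjusted p = 9.03e-06) and changed by -0.19 in WT (SE 0.15, adjusted p = 0.31), a difference of -0.72 (SE 0.20, adjusted p = 0.0144). With the mean of its 2 probes it was -0.67 (adjusted p = 0.163, the highest over 30 alternatives).

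Cdt1, which loads the MCM helicase onto DNA, moved against the other loading genes in LKO. Its lowest, median and highest levels were -1.03, -0.96 and -0.50 in fasted LKO mice, against -2.27, -1.87 and -1.03 in fed LKO mice. In fasted WT mice it was at -1.59, -1.04, -0.72, -0.96 and -0.97, and in fed WT mice at -1.13, -0.92, -1.10, -1.61 and -0.79. The LKO groups touched at their edges, and the WT groups overlapped fully. Cdt1 rose 1.85-fold in LKO (log2 0.89, SE 0.18, adjusted p = 0.000389) and changed by 0.05 in WT (SE 0.20, adjusted p = 0.862). The difference was 0.83 (SE 0.27, adjusted p = 0.036), which lay between 0.71 and 1.33 within the slides. The call was lost in 12 of 30 alternatives, 11 of which leave out a mouse (fasted LKO replicate 2 or 3, fed LKO replicate 1, 2, 4 or 5, fasted WT replicate 1, or fed WT replicate 1, 2, 3 or 5), with values of 0.70 to 0.84 and adjusted p of 0.0517 to 0.0728.

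Uhrf1 had an interaction of 1.87 (SE 0.59, adjusted p = 0.0318). This value rests on signals at the background, since the probe was well above it in 3 of 6 fasted LKO mice and 0 of 5 fasted WT mice, and its size is not a measured difference in response. It lay between 0.60 and 3.34 within the slides. The call was lost with normexp (0.43, adjusted p = 0.234), in the authors' deposited table (0.70, adjusted p = 0.143) and with no filter (adjusted p = 0.0576). It was lost too without any 1 of 7 mice (fasted LKO replicate 3 or 6, fed LKO replicate 1, fasted WT replicate 4 or 5, fed WT replicate 2 or 5), with values of 1.65 to 1.83 and adjusted p of 0.0516 to 0.0631.

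Further genes of the same steps are read against the 19.8% of all genes that were lower and the 17.8% that were higher in fasted LKO. In fasted mice 10 of 35 other replication genes were lower in LKO and 2 higher, 6 of 25 other genes of G2 and mitosis lower and 2 higher, and 6 of 23 other genes of G1/S control lower and 5 higher. The shares of 24% lower for G2 and mitosis and of 26.1% lower and 21.7% higher for G1/S control are near those of all genes. Spc25, a kinetochore protein, was lower in LKO, with a difference of -3.80 in fasted mice (SE 0.15, adjusted p = 1.1e-13) and -2.03 in fed mice (SE 0.15, adjusted p = 1.28e-08). Ccnd3, a D-type cyclin, was lower in fasted LKO, with -1.23 (SE 0.08). Of 17 p53 response genes 1 was lower and 9 were higher in fasted LKO, among them Gadd45a, a growth arrest gene, by 1.78 (SE 0.35), Plk3, a stress-responsive polo-like kinase, by 1.51 (SE 0.34), and Btg2, an antiproliferative gene, by 1.31 (SE 0.31). For Cdkn1a the value was 0.18 (SE 0.34, adjusted p = 0.72), which did not pass. In fed mice 3.91% of all genes differed in either direction. Of the further lists, 0 of 35 other replication genes, 2 of 23 of G1/S control, 1 of 25 of G2 and mitosis and 1 of 17 p53 response genes differed. The shares of G2 and mitosis (4%) and of p53 response genes (5.88%) are near that of all genes. Without fed LKO replicate 3, 4 of 35 other replication genes were lower in fed LKO and 0 higher, with a median of -0.26. Then 2 of 25 of G2 and mitosis and 2 of 23 of G1/S control were lower, and 1 of 17 p53 response genes was higher. In that fit 2.37% of all genes were lower and 2.71% higher.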

How the data were processed

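Liver RNA was hybridised to 1-colour Agilent arrays, and the scanner files were deposited after Agilent Feature Extraction 10.10.1.1, per the file headers. Their processed signal is an intensity after background subtraction, per the file headers, and probe positions are in mm9. The intensity was taken as log2, each array's 75th percentile was subtracted, and repeat arrays of an animal were averaged. A series table of log2 values, as the authors deposited it, served as an alternative. Control spots were left out. Of 56605 probes 46291 named a gene, and 28360 of these passed the filter (well above background in 5 or more of 22 animals). Where several probes of a gene passed, the one with the highest mean was used. Groups came from the labels, and the 4 group means were fitted over 17331 genes with limma 3.58.1 in R 4.3.3, Benjamini-Hochberg adjusted, called under 0.05. The procedure was tested on simulated data.

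The members and lists were chosen with earlier results of these data known. Every member may be named, and of each further list the 3 called genes with the largest change in a comparison. Alternatives were quantile normalization, normexp with an offset of 50, the authors' deposited table, no filter, a filter at 11 animals, the mean of the probes, slide or replicate number as a block, only the groups compared in the fit, and each animal left out. The number of arrays limits the precision.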

Additional observations from a re-analysis of the deposited data

Results flagged for a closer look

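Of 128 groups of a tested member's values examined, 9 held an animal set apart from the rest of its group by Dixon's criterion, where chance sets apart about 1 in 20 groups. Fed WT replicate 4 was the lowest of its group for 4 genes: Pcna at 2.74 (3.11 to 3.16 in the other fed WT mice), Chaf1a at -3.30 (-2.42 to -2.24), Cdk1 at -5.19 (-3.92 to -3.61) and Aurka at -1.88 (-1.54 to -1.40). Fed LKO replicate 3 was lowest for Tk1 at 2.67 (3.16 to 3.42 in the rest of its group) and highest for Top2a at -1.62 (-3.86 to -3.29). Fasted LKO replicate 2 was highest for Ccne1 at -2.23 (-2.72 to -2.61), fasted LKO replicate 6 was highest for Cdc20 at -2.88 (-3.92 to -3.57), and fasted WT replicate 3 was highest for Ccnb2 at -1.14 (-3.01 to -2.50).

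The change with fasting differed between LKO and WT by limma's test of the interaction for 4 members: Gins1 at -0.95 (adjusted p = 8.92e-05), Birc5 at -0.72 (adjusted p = 0.0144), Uhrf1 at 1.87 (adjusted p = 0.0318) and Cdt1 at 0.83 (adjusted p = 0.036). The Uhrf1 value rests on signals at the background, since its probe was well above it in 0 of 5 fasted WT mice. The call for Gins1 held in 30 of 30 alternatives, with adjusted p of 5.7e-05 to 0.000357, for Birc5 in 29 (0.00287 to 0.163), for Uhrf1 in 20 (0.00749 to 0.234) and for Cdt1 in 18 (0.00496 to 0.0728).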

How the results depend on the processing

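The counts of members that fell or rose with fasting kept within 1.5 times their value under every alternative run: with 1 animal left out, 26 to 27 fell and 2 rose in LKO, and 22 to 24 fell and 1 rose in WT. In fasted mice 7 to 9 were lower and 2 to 3 higher in LKO with 1 animal left out, and 1 higher with normexp or in the authors' deposited table. In fed mice 0 to 8 were lower and 0 to 1 higher in LKO with 1 animal left out. The fed count of lower members was 2 in the authors' deposited table, and 0 with no filter or with only the groups compared. The fed count of higher members was 0 with no filter, the mean of the probes, the replicate block or only the groups compared. For the interaction, 2 to 4 members were lower and 0 to 4 higher with 1 animal left out. Its lower count was 4 with normexp, and its higher count 1 with normexp, 1 in the authors' deposited table and 0 with no filter. Over all genes, 678 were called in fed mice and 374 with only those groups in the fit.

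Animals that share a replicate number deviated together little or not at all (r of -0.19 to 0.17). In 3 of 6, 1 of 5, 0 of 5 and 2 of 5 cases the best match of an animal in the compared group bore its own number. Too few animals were compared for this check to settle whether the numbers pair animals, and the main fit did not use the numbers. With the replicate block 27 members fell and 2 rose in LKO, 24 fell and 1 rose in WT, 8 were lower and 2 higher in fasted LKO, 1 was lower and 0 were higher in fed LKO, and the interaction had 2 and 2. Behind these counts Pcna and Ccna2 lost their call in fasted LKO (adjusted p of 0.0566 and 0.0692) and Birc5 gained one (0.0115), Pcna lost its call in WT (0.0799) and Ccnb2 gained one (0.0393), and in fed LKO Mcm4 and Cdkn1a lost theirs (0.0621 and 0.0601) and Cdt1 gained one (0.0441). The block turned the fed differences of Ccnd1 (0.0064), Cdc20 (-0.056) and Top2a (-0.012) and the fasted differences of Ccnb1 (-0.073) and Mki67 (-0.046), none of them called.

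Signs turned only where a change was not called. In the authors' deposited table this held for Ccnd1 in fed mice (0.027), Plk1 (0.012) and Top2a (0.018) in fasted mice, and the interactions of Mcm2 (0.069) and Cdk1 (0.099). With normexp it held for Top2a in fasted mice (0.00273) and the interactions of Mcm2 (0.078) and Cdk1 (0.071). The interaction of Cdk1 was 0.12 with quantile normalization and 0.012 with the slide as a block, and the fed difference of Gins1 was -0.037 with the mean of the probes. With 1 animal left out, the LKO fasting change ran from -0.43 to 0.032 for E2f8 and from -0.091 to 0.048 for Mcm7, and the WT one from -0.072 to 0.18 for Cdt1. Differences in fed mice ran from -0.13 to 0.030 (Ccnd1), -0.19 to 0.029 (Cdc6), -0.00879 to 0.11 (Gins1), -0.094 to 0.022 (Pcna), -0.058 to 0.35 (Ccna2), -0.18 to 0.056 (Ccnb1), -0.00844 to 0.30 (Ccnb2), -0.17 to 0.14 (Cdc20), -0.035 to 0.36 (Mki67) and -0.21 to 0.24 (Top2a). Differences in fasted mice ran from -0.028 to 0.42 (Cdkn1a), -0.019 to 0.16 (Mcm6), -0.00698 to 0.16 (Cdc6), -0.00208 to 0.10 (Lig1), -0.029 to 0.29 (Chaf1a), -0.024 to 0.13 (Rrm2), -0.13 to 0.18 (Ccnb1), -0.097 to 0.023 (Plk1) and -0.095 to 0.20 (Mki67). Interactions ran from -0.28 to 0.045 (Mcm2), -0.030 to 0.54 (Mcm5), -0.071 to 0.24 (Ccnb1), -0.30 to 0.24 (Cdk1) and -0.30 to 0.12 (Mki67). The cause of these turns was not tested. Dim probes limit the sizes: with normexp 11 of the 29 changes called in LKO and 10 of the 25 in WT moved by over 1.5 times.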
